A study of Mus musculus with 25 samples.

Results

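The genes described here are *Aldh1l1* and 8 enzymes that act with it on folate-bound carbon or on its use for methylation: *Aldh1l2*, *Shmt1*, *Shmt2*, *Mthfd1*, *Mthfd1l*, *Mthfd2*, *Mthfd2l* and *Mat2a*. They were chosen by symbol, with earlier results of these data known. All 9 were found among the 52636 genes counted by RNA-seq in mouse *soleus*, a slow, oxidative hindlimb muscle. Each library came from 1 C57BL/6 mouse of 12 weeks, and every mouse carried floxed *Dnmt3a* alleles (*Dnmt3a* flox/flox). WT mice were littermates without Cre, and mD3AKO mice also carried a Cre transgene under the muscle creatine kinase promoter (mCK-Cre), which is active in striated muscle late in differentiation, so that other cells of the muscle may keep the de novo DNA methyltransferase DNMT3A. Exercised mice ran on a treadmill for 30 min at 16 m/min and a 5% incline and were killed 60 min later, and rested mice stood on a sham treadmill. The groups held 5 rested WT mice (3 males, 2 females), 7 exercised WT mice (3 males, 4 females), 7 rested mD3AKO mice (4 males, 3 females) and 6 exercised mD3AKO mice (3 males, 3 females). The comparisons ask which of these genes differ between WT and mD3AKO muscle, which respond to a bout of exercise, and whether the response differs by genotype.

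Folate carries single carbon units between serine, formate, purines, thymidylate and methionine, and the cycle runs in parallel in the cytosol and in mitochondria. Serine hydroxymethyltransferases (SHMT1 in the cytosol, SHMT2 in mitochondria) move a carbon from serine to tetrahydrofolate, the MTHFD proteins change the oxidation state of that carbon or release it as formate, and the ALDH1L proteins (ALDH1L1 in the cytosol, ALDH1L2 in mitochondria) oxidise formyl-tetrahydrofolate to carbon dioxide, which takes carbon out of the cycle while forming NADPH. The methyl groups made from folate enter methionine, from which MAT2A, the methionine adenosyltransferase of most tissues outside the liver, makes S-adenosylmethionine, the methyl donor that DNMT3A and other methyltransferases use. *Aldh1l1* is best known from liver and from astrocytes.

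Libraries held between 22671457 and 37431801 counts, with a median of 32189360, so that 1 CPM (the read count scaled to library size, here corrected by the trimmed mean of M values) stood for 32.2 reads at the median depth. *Dnmt3a* was at 93.4 to 130 CPM in the 12 WT mice and at 34.6 to 53.9 CPM in the 13 mD3AKO mice, so every library matched its genotype label. In mouse 15 of the rested mD3AKO group, 3 ribosomal RNA genes took 39.5% of the counts against 7.75% to 13% in the other libraries. Leaving out that mouse changed no call for the 9 genes for genotype, exercise or interaction. In whole muscle, a smaller number of cells of one type and less RNA per cell cannot be told apart.

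Levels per kb of exon spread widely over the 9 genes. *Mat2a* was highest at 20.2 ± 3.59 CPM per kb (SD, n = 25 mice), followed by *Mthfd1* at 11.9 ± 0.737 and *Shmt2* at 8.95 ± 0.587. *Aldh1l1* came next at 4.06 ± 1.86 CPM per kb, *Shmt1* stood at 2.07 ± 0.688 and *Mthfd2* at 1.7 ± 0.192. The *Aldh1l1* mean pools 2 unlike genotypes. In WT mice (n = 12) *Aldh1l1* was at 2.38 ± 0.741 and *Shmt1* at 1.81 ± 0.525 CPM per kb. In mD3AKO mice (n = 13) they were at 5.61 ± 1 and 2.32 ± 0.745. *Mthfd1l* (0.696 ± 0.242), *Aldh1l2* (0.649 ± 0.150) and *Mthfd2l* (0.531 ± 0.0808) were lowest. The first 4 genes did not overlap each other in range: *Mat2a* was above *Mthfd1*, *Mthfd1* above *Shmt2* and *Shmt2* above *Aldh1l1* in 25 of 25 mice. *Aldh1l1* was above *Shmt1* in 22 of 25 mice and *Shmt1* above *Mthfd2* in 18 of 25, with overlapping ranges. *Mthfd2* was above *Mthfd1l* in 25 of 25 mice. The last 3 genes overlapped each other, and *Mthfd1l* was above *Aldh1l2* in 16 of 25 mice and *Aldh1l2* above *Mthfd2l* in 18 of 25. Their order by mean was not the same at rest, where *Mthfd1l* (0.532), *Aldh1l2* (0.628) and *Mthfd2l* (0.562) stood close together, as after exercise, where *Mthfd1l* (0.848) was above *Aldh1l2* (0.668) and *Mthfd2l* (0.501).

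Between partner enzymes of the cytosol and mitochondria, the cytosolic form was the more abundant transcript for the ALDH1L and MTHFD proteins and the mitochondrial form for SHMT. Per kb of exon, *Shmt2* stood 4.73 ± 1.5 times above *Shmt1* (SD, n = 25), with a range of 2.25 to 8.66. *Mthfd1*, the cytosolic enzyme with 3 activities, stood 9.77 to 66.8 times above *Mthfd1l*, the mitochondrial formate-releasing enzyme, with medians of 20.2 in rested and 15.3 in exercised WT mice and of 21.8 and 13.2 in rested and exercised mD3AKO mice. *Mthfd2*, one of the mitochondrial dehydrogenase-cyclohydrolases, stood 3.26 ± 0.516 times above its paralog *Mthfd2l*. *Aldh1l1* stood above *Aldh1l2* in all 25 mice, by 1.23 to 5.78 times in the 12 WT mice and by 5.38 to 14.4 times in the 13 mD3AKO mice.

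*Aldh1l1* (ENSMUSG00000030088) lies on the plus strand of chromosome 6 at chr6:90486427-90600203 (mm10) and has 4516 exon bases. The RefSeq transcription start lies inside that span, and the 250 bases before it are shown. They were chosen because the reverse primer of a pyrosequencing assay for methylation at this promoter lies in them, and no methylation value was analysed here. CG dinucleotides, the sites DNMT3A methylates, are in capitals. The reverse primer of that assay is the reverse complement of the site on the last line after bisulfite conversion, which turns C outside CG into T, with 1 mismatch, which falls at the CG. The site lies 237 to 210 bases before the start, and of the 7 CG shown, 1 is before it, 1 is in it and 5 are between it and the start, on the far side of the primer from the stretch it amplifies. The forward primer was not found in the window, where its best match had 11 mismatches.
Aldh1l1 before the start, chr6:90550543-90550792, plus strand, GRCm38.p6: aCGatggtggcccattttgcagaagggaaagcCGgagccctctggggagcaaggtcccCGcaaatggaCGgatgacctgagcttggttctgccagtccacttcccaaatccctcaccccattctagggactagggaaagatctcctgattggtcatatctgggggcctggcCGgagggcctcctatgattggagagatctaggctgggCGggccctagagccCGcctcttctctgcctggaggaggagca
Aldh1l1 pyrosequencing reverse primer: aaaactcccactttcccttctacaaaat
Aldh1l1 primer site, chr6:90550556-90550583, plus strand: attttgcagaagggaaagcCGgagccct

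*Aldh1l1* transcripts were more abundant in mD3AKO than in WT muscle, at rest and after exercise. In rested WT mice the values were 10.9, 7.87, 11.7, 9.14 and 12.9 CPM, and in rested mD3AKO mice they were 28.8, 16.5, 33.9, 23.4, 27.8, 29.4 and 26.3 CPM. All 7 rested mD3AKO mice were above all 5 rested WT mice. After exercise, WT mice were at 10.4, 5.62, 12.6, 9.44, 8.05, 11.6 and 18.9 CPM and mD3AKO mice at 23.3, 28.9, 22.4, 24.3, 20.4 and 23.8 CPM. These ranges did not overlap either. Over both conditions 12 of 13 mD3AKO mice exceeded every WT mouse, the exception being rested mD3AKO mouse 7 at 16.5 CPM, below exercised WT mouse 25 at 18.9 CPM.

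Group means of *Aldh1l1* were 10.5 ± 2.01 CPM (SD, n = 5) in rested WT, 11.0 ± 4.21 (n = 7) in exercised WT, 26.6 ± 5.47 (n = 7) in rested mD3AKO and 23.8 ± 2.86 (n = 6) in exercised mD3AKO mice. The main effect of genotype was a log2 fold change of 1.23 ± 0.14 (SE, 95% interval 0.94 to 1.52, adjusted p = 5.65e-06), or 2.35-fold, the 11th smallest p of the 16340 genes tested with edgeR's quasi-likelihood test. It was the only one of the 9 genes called higher for genotype, in a comparison that called 0.226% of all tested genes higher and 0.0428% lower. The set was chosen with earlier results of these data known, so the p values of *Aldh1l1* are not an independent test. At rest the log2 difference was 1.34 ± 0.21 (adjusted p = 0.00185, exact two-sided permutation p = 0.00126) where 0.0857% of genes were called higher, and after exercise it was 1.12 ± 0.19 (adjusted p = 0.00452, exact two-sided permutation p = 0.00117) where 0.104% were. In males alone the difference was 1.28 ± 0.16 (adjusted p = 0.00413), and in females alone it was 1.17 ± 0.22 and missed the threshold (adjusted p = 0.159). The ranges of the genotypes did not overlap within either sex. Females were at 5.62 to 18.9 CPM in WT and 23.3 to 29.4 CPM in mD3AKO mice, and males at 7.87 to 12.6 and 16.5 to 33.9 CPM. The sex by genotype term was 0.10 ± 0.28. *Aldh1l1* showed no exercise effect that passed the test (log2 -0.05, 95% interval -0.33 to 0.23).

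**Figure D1:**
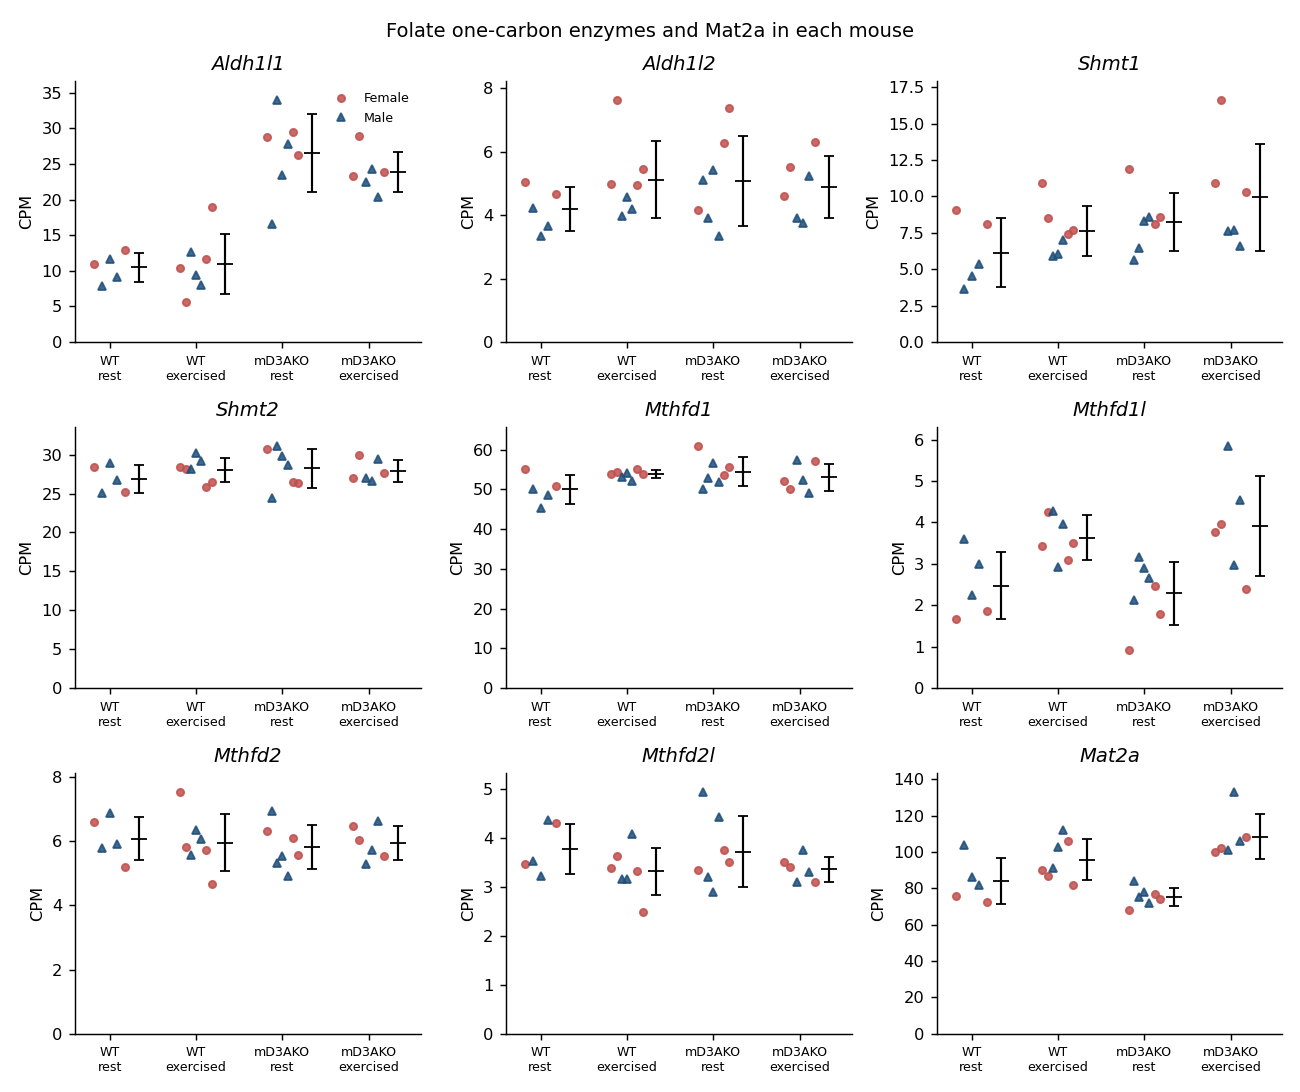
Scaled counts (CPM, y axis from 0, a separate scale for each gene) of the 9 genes in every mouse, by genotype and exercise. Circles are females, triangles males, and the bar beside each group is the mean ± SD; *Aldh1l1* sits between 5.62 and 18.9 CPM in WT and between 16.5 and 33.9 CPM in mD3AKO mice, and *Mat2a* between 100 and 133 CPM in exercised mD3AKO mice against 68.0 to 83.8 CPM at rest.

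No other enzyme of the set passed the test for genotype. *Shmt1*, the cytosolic serine hydroxymethyltransferase, came nearest: rested WT mice were at 3.62 to 9.07 CPM (median 5.34), exercised WT mice at 5.88 to 10.9 (median 7.44), rested mD3AKO mice at 5.61 to 11.9 (median 8.30) and exercised mD3AKO mice at 6.58 to 16.6 (median 8.97). Its log2 difference between genotypes was 0.40 ± 0.16 (95% interval 0.07 to 0.73, unadjusted p = 0.0190, adjusted p = 0.639), with 10 of 13 mD3AKO mice above the WT median. *Shmt1* also differed by sex, and with mouse numbers 1 to 6, 7 to 19 and 20 to 25 as blocks (numbers 7 to 19 were the males) the difference was 0.41 ± 0.09 (adjusted p = 0.0268), while with sex alone as a term it was 0.42 ± 0.10 (adjusted p = 0.0798).

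*Aldh1l2*, the mitochondrial partner of *Aldh1l1*, was at 4.73 ± 1.10 CPM in WT (SD, n = 12) and 5.00 ± 1.19 CPM in mD3AKO mice (n = 13), a log2 difference of 0.11 with a 95% interval of -0.14 to 0.37. *Shmt2* was at 27.6 ± 1.64 and 28.1 ± 2.01 CPM, with an interval of -0.05 to 0.12. *Mthfd1* was at 52.2 ± 2.97 and 53.8 ± 3.47 CPM, with an interval of -0.03 to 0.13. These intervals leave out changes of the size seen for *Aldh1l1*, and those of *Shmt2* and *Mthfd1* are among the narrowest of the set. *Mthfd2* (-0.18 to 0.12), *Mthfd2l* (-0.19 to 0.18), *Mthfd1l* (-0.34 to 0.33) and *Mat2a* (-0.12 to 0.14) had intervals on both sides of 0. Over the 9 genes the median log2 difference was 0.03, and over all tested genes it was 0.01.

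**Figure D2:**
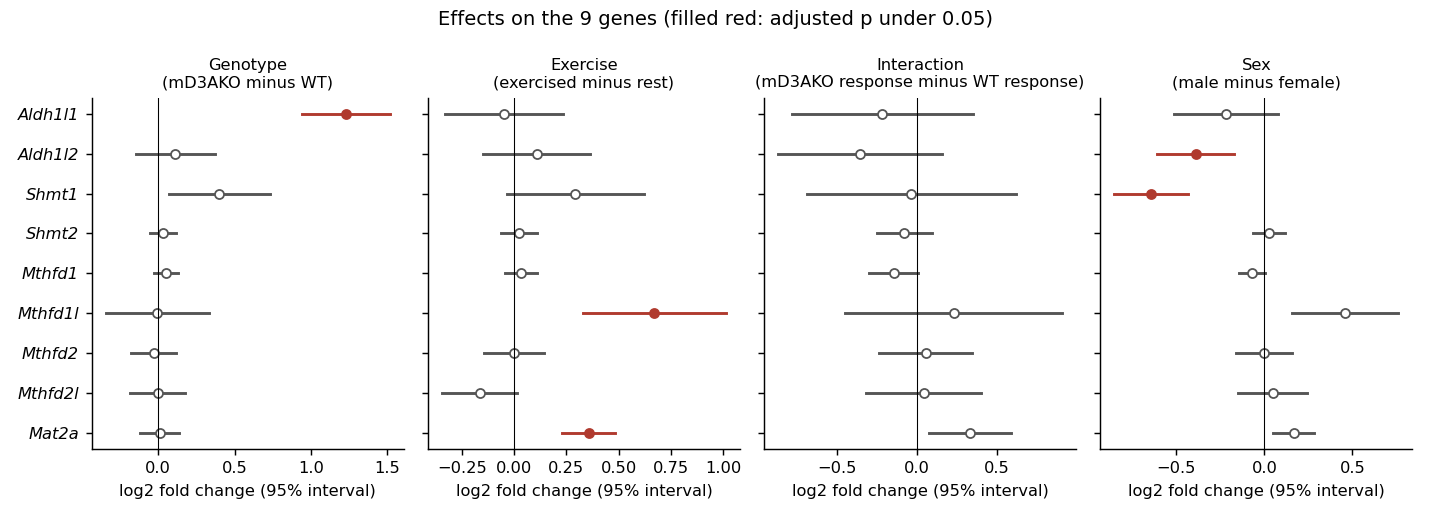
Log2 fold changes (x axis, a separate scale for each panel) with 95% intervals of the 9 genes for genotype, exercise, their interaction and sex; filled red points have an adjusted p under 0.05. *Aldh1l1* stands at 1.23 for genotype, *Mthfd1l* at 0.67 and *Mat2a* at 0.36 for exercise, no gene is filled for the interaction, and *Shmt1* and *Aldh1l2* are lower in males.

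*Mat2a* and *Mthfd1l* rose after exercise, 2 of the 9 genes, in a comparison that called 5.7% of all tested genes higher and 4.69% lower. *Mat2a* in rested WT mice was at 75.5, 104, 86.3, 82.0 and 72.3 CPM, and in exercised WT mice at 90.3, 86.6, 91.1, 103, 112, 106 and 81.9 CPM. In rested mD3AKO mice it was at 68.0, 83.8, 75.4, 77.7, 71.9, 76.7 and 74.1 CPM, and in exercised mD3AKO mice at 100, 102, 101, 133, 106 and 108 CPM. The WT ranges overlapped, while all 6 exercised mD3AKO mice were above all 7 rested ones. The main effect of exercise was 0.36 ± 0.06 on the log2 scale (95% interval 0.23 to 0.48, adjusted p = 0.000212), and all 13 exercised mice were above the median of rested mice.

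By genotype, the log2 change of *Mat2a* with exercise was 0.52 ± 0.09 in mD3AKO mice (adjusted p = 0.000193, with 3.7% of genes called higher) and 0.19 ± 0.09 in WT mice (adjusted p = 0.380, with 2.16% called higher). The 2 responses differed by 0.33 ± 0.12 (95% interval 0.08 to 0.59, unadjusted p = 0.0123), which did not pass correction over all genes (adjusted p = 1.00). With any 1 mouse left out this difference ran from 0.245, without rested WT mouse 11, to 0.38, without rested WT mouse 20. In females alone it was 0.206 ± 0.139 and in males alone 0.382 ± 0.166. The interaction called 0% of the 16340 genes with edgeR, of which 403 had an unadjusted p under 0.05, and DESeq2 also called 0. Without exercised mD3AKO mouse 17, at 133 CPM, the main effect was 0.32.

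*Mat2a* (ENSMUSG00000053907) is on the minus strand at chr6:72432799-72439558 and has 4486 exon bases. The 250 bases before its RefSeq start are shown, with CG in capitals, for comparison with *Aldh1l1*: they hold 29 CG dinucleotides against 7.
Mat2a before the start, chr6:72439557-72439806, minus strand, GRCm38.p6: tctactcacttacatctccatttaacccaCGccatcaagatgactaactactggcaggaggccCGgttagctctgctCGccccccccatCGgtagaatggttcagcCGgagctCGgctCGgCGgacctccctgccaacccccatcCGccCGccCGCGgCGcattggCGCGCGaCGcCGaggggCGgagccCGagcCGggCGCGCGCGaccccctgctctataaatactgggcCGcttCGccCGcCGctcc

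*Mthfd1l*, which releases formate from mitochondria, was one of the least abundant genes, at 31 to 183 counts per library. Rested WT mice were at 1.67, 3.59, 2.24, 3.00 and 1.86 CPM and exercised WT mice at 3.44, 4.25, 4.27, 2.91, 3.95, 3.08 and 3.51 CPM. Rested mD3AKO mice were at 0.909, 2.12, 3.16, 2.89, 2.66, 2.46 and 1.79 CPM and exercised mD3AKO mice at 3.77, 3.95, 5.84, 2.97, 4.55 and 2.40 CPM. The ranges overlapped in both genotypes, and all 13 exercised mice were above the median of the 12 rested mice. The main effect of exercise was 0.67 ± 0.17 on the log2 scale (95% interval 0.33 to 1.01, adjusted p = 0.00727). In mD3AKO mice it was 0.79 ± 0.23 (adjusted p = 0.0370) and in WT mice 0.56 ± 0.24 (adjusted p = 0.301), and the difference between these, 0.23 ± 0.33, did not pass the test (adjusted p = 1.00) and ran from 0.06 without mouse 11, a rested WT mouse, to 0.34 without mouse 1, another. In males alone the effect of exercise was 0.52 ± 0.17 (adjusted p = 0.113) and in females alone 0.99 ± 0.22 (adjusted p = 0.0295), and the sex by exercise term was -0.46 ± 0.29 (unadjusted p = 0.124, adjusted p = 1.00).

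The other 7 genes did not pass the test for exercise. *Mthfd1* was at 45.3 to 60.9 CPM at rest and 49.2 to 57.3 CPM after exercise, and its 95% interval for exercise ran from -0.04 to 0.11 on the log2 scale. *Shmt2* was at 24.4 to 31.1 CPM at rest and 25.8 to 30.2 CPM after exercise, with an interval of -0.06 to 0.11. *Mthfd2* was at 4.90 to 6.94 CPM at rest and 4.65 to 7.53 CPM after exercise, with an interval of -0.15 to 0.15. *Mthfd2l* was at 2.89 to 4.93 CPM at rest and 2.49 to 4.07 CPM after exercise, and its log2 change of -0.16 ± 0.09 had an adjusted p of 0.291. *Shmt1* had a log2 change of 0.29 ± 0.16 (adjusted p = 0.309), and *Aldh1l2* one of 0.11 ± 0.12. With any 1 mouse left out, the change ran from 0.184 to 0.383 for *Shmt1* and from 0.0495 to 0.166 for *Aldh1l2*. *Mthfd1* was the steadiest gene of the set in exercised WT mice, where its coefficient of variation was 1.76%, and *Mthfd1l* had the widest spread in exercised mD3AKO mice after *Shmt1*, at 30.9% and 36.9%.

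*Shmt1* and *Aldh1l2* were lower in males than in females, 2 of the 9 genes, where sex called 3.6% of all tested genes lower in males and 5.04% higher. *Shmt1* was at 6.41 ± 1.45 CPM in 13 males and 9.84 ± 2.57 CPM in 12 females, with ranges of 3.62 to 8.60 and 7.44 to 16.6 CPM. Every male was below the female median. In rested WT, exercised WT and exercised mD3AKO mice all males were below all females, and in rested mD3AKO mice the males (5.61, 6.47, 8.30 and 8.60 CPM) overlapped the females (11.9, 8.10 and 8.60 CPM). The log2 difference, male minus female, was -0.64 ± 0.10 (adjusted p = 0.000312).

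*Aldh1l2* was at 4.21 ± 0.682 CPM in males and 5.58 ± 1.10 CPM in females, a log2 difference of -0.39 ± 0.11 (adjusted p = 0.0238), with 12 of 13 males below the female median. *Mthfd1l* was 0.46 ± 0.15 higher in males on the log2 scale (adjusted p = 0.0521) and *Mat2a* 0.17 ± 0.06 higher (adjusted p = 0.0659), both short of the threshold. *Aldh1l1* did not pass (-0.22 ± 0.14, adjusted p = 0.384). Of the 8 muscle fiber markers, 4 were called lower and 2 higher in males in the same libraries, where 3.6% of all tested genes were called lower and 5.04% higher: the slow myosin heavy chain *Myh7* was lower in males by a log2 change of -0.51 ± 0.08, *Tnnc1* by -0.38, *Tnni1* by -0.40 and *Casq2* by -0.47, while creatine kinase *Ckm* was higher by 0.30 and myoglobin *Mb* by 0.26. *Acta1* (-0.05) and *Des* (0.14) were not called. Of the satellite cell markers 2 of 5 were called lower in males and all 5 had negative values, with a median of -0.10. Adipocyte markers (median -0.72) and Schwann cell markers (median -0.77) were each negative in 6 of 6, with 0 called. The part of these genes in the sex differences of *Shmt1* and *Aldh1l2* was not tested.

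**Figure D3:**
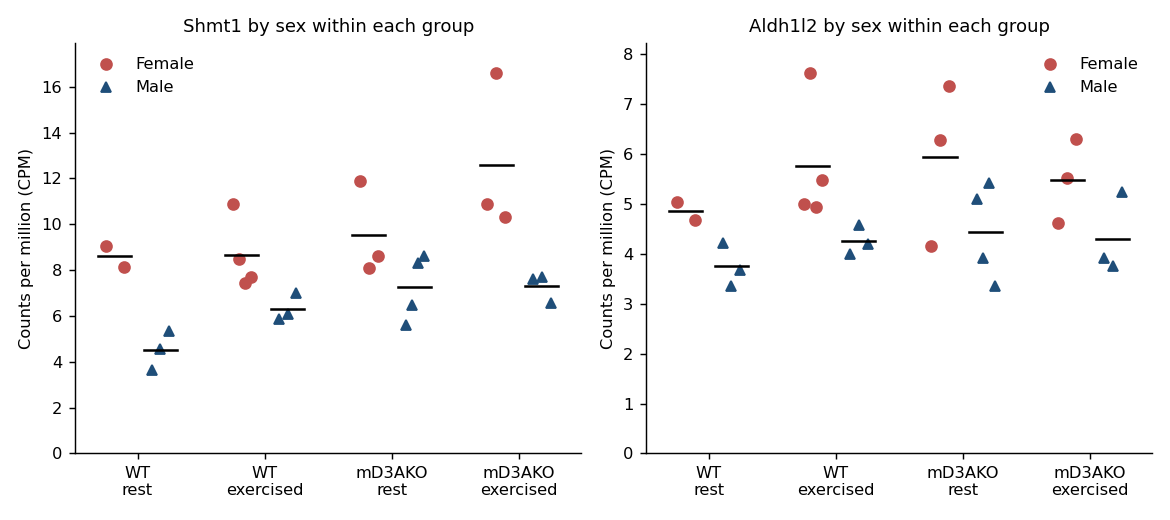
*Shmt1* (left) and *Aldh1l2* (right) in CPM (y axis from 0) for each mouse, by group and sex; circles are females, triangles males, and horizontal bars are means. Male *Shmt1* values run from 3.62 to 8.60 CPM and female values from 7.44 to 16.6 CPM.

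The wider folate and methionine pathway was described by 41 further genes, of which 35 were abundant enough to be tested. None of the 35 was called for genotype, where 0.226% of all tested genes were called higher and 0.0428% lower, or for exercise, where these shares were 5.7% and 4.69%, and their median log2 change was -0.01 for genotype and -0.02 for exercise, against 0.01 and -0.000883 over all tested genes. The interaction called none of them either, with a median of -0.11 against -0.01 over all tested genes. All 5 tested genes of choline oxidation and transsulfuration had a negative interaction, with a median of -0.63 and unadjusted p values from 0.0156 for *Cbs* to 0.369 for *Aldh7a1*. *Cbs* was near the floor, with at most 16 counts in any library, and *Chdh* was at 0.14 to 3.67 CPM. Negative interactions were also found in 6 of 7 tested genes of folate reduction and use and 6 of 7 of folate uptake. They were found in 7 of 10 methionine cycle genes and 3 of 6 of serine synthesis and glycine cleavage. Of the marker lists of cell types, 4 had every tested gene negative for the interaction, with medians of -0.88 over 6 adipocyte markers, -0.64 over 6 Schwann cell markers, -0.36 over 6 fibroblast markers and -0.97 over the 2 tested liver markers. The medians were -0.13 over the 5 tested immune markers (4 negative, 1 at 1.21), 0.04 over 6 endothelial markers (3 negative), 0.09 over 5 satellite cell markers (2 negative) and 0.00569 over 8 muscle fiber markers (3 negative). No gene of these lists was called. Their part in the choline and transsulfuration values was not tested. Among the 7 tested genes of folate reduction and use, the purine enzymes *Gart* and *Atic* were at 49.4 and 31.4 CPM on average and changed by -0.01 and -0.00431 with genotype, and thymidylate synthase *Tyms* by -0.29 ± 0.11 with exercise (adjusted p = 0.105). Among the 7 genes of folate uptake and retention, the reduced folate carrier *Slc19a1* and the mitochondrial folate carrier *Slc25a32* changed by -0.08 and 0.02 with genotype. Among the 6 tested genes of serine synthesis and glycine cleavage, *Psat1*, which makes phosphoserine, was nearest for genotype at -0.46 ± 0.16 (unadjusted p = 0.00973, adjusted p = 0.506).

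Of the 10 tested methionine cycle and methyl transfer genes, the MAT2A regulatory subunit *Mat2b* changed by -0.10 ± 0.07 with exercise, and methionine synthase *Mtr* by -0.04 ± 0.05. The liver form *Mat1a* reached at most 2 counts in any library, and the liver betaine methyltransferases *Bhmt* and *Bhmt2* at most 2 and 0, so they were not tested. The folate-linked *Ftcd*, the glycine decarboxylase *Gldc* and *Dmgdh* were also too low, with at most 5, 14 and 1 counts. Of the 5 tested genes of choline oxidation and transsulfuration, *Chdh*, which oxidises choline, had the largest change for genotype (-0.48 ± 0.47, adjusted p = 0.991).

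By sex, where 5.04% of all tested genes were called higher in males and 3.6% lower, 4 genes of these lists passed the test among those reported here, and they are named after their values were seen. The purine enzyme *Atic* was lower in males (-0.16 ± 0.05 on the log2 scale), as were *Aldh7a1* (-0.23 ± 0.06) and cystathionine gamma-lyase *Cth* (-0.52 ± 0.16), and *Dld*, a subunit of the glycine cleavage system, was higher (0.25 ± 0.06).

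Genes linked to the transcription factor ATF4, which is known to drive *Mthfd2*, *Shmt2* and *Aldh1l2* under amino acid or mitochondrial stress, were split in direction after exercise. Of 12 genes, *Atf4* itself and 11 of its known targets or partners, 2 rose and 2 fell, where 5.7% of all tested genes were called higher and 4.69% lower. *Atf4* itself rose by 0.32 ± 0.06 on the log2 scale (adjusted p = 0.000438) and the amino acid transporter subunit *Slc3a2* by 0.47 ± 0.06 (adjusted p = 3.20e-06). *Chac1*, a glutathione-degrading enzyme, fell (-0.92 ± 0.26, adjusted p = 0.0181), and the stress factor *Ddit3* fell (-0.35 ± 0.10, adjusted p = 0.0247). No gene of the list was called for genotype, where 0.226% of all tested genes were called higher and 0.0428% lower.

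**Figure D4:**
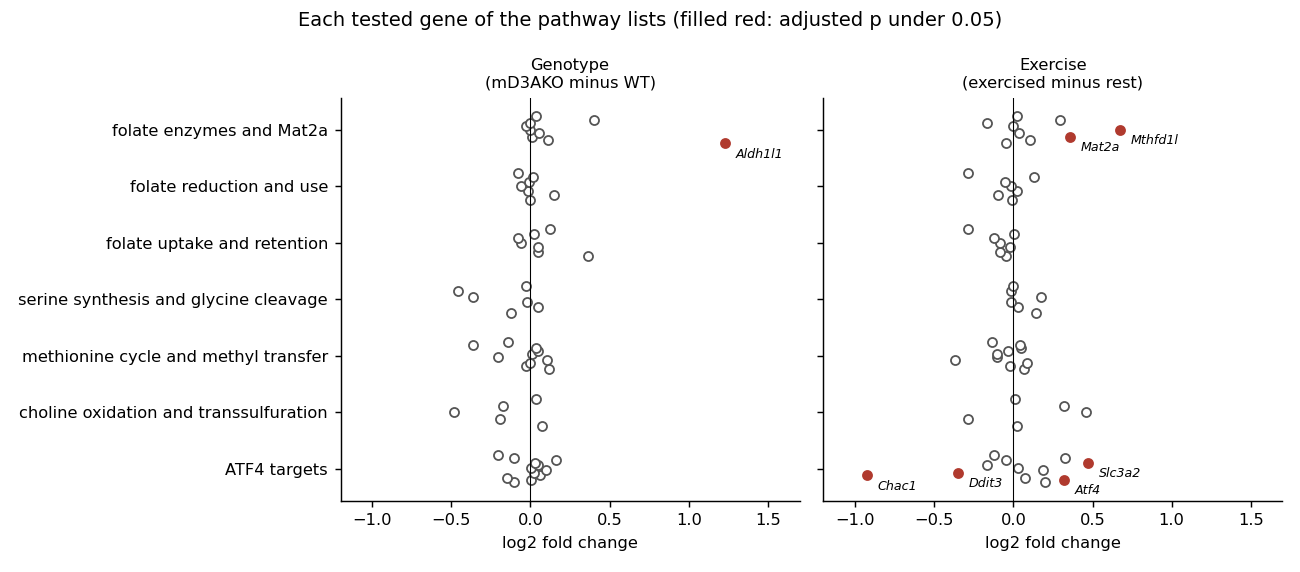
Log2 fold changes (x axis) for genotype and exercise of every tested gene in the 9-gene set and in 6 lists of related genes, 1 point per gene; vertical positions within a list only separate the points. Filled red points have an adjusted p under 0.05: *Aldh1l1* for genotype, *Mthfd1l* and *Mat2a* and 4 ATF4-linked genes for exercise.

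Markers of the cell types in *soleus* were set beside these results. The 8 muscle fiber markers summed to 56100 to 75800 CPM, with no gene called for genotype or exercise. Of the 5 satellite cell markers, 1 was called higher in mD3AKO mice, *Pax7* (0.48 ± 0.10, adjusted p = 0.0384), where 0.226% of all tested genes were. The list split into 3 positive and 2 negative values with a median of 0.06, and it summed to 24.3 to 36.8 CPM in rested WT, 27.5 to 39.6 in exercised WT, 24.9 to 43.8 in rested mD3AKO and 24.4 to 39.5 in exercised mD3AKO mice. None of the markers of fibroblasts, endothelium, immune cells, adipocytes or Schwann cells was called for genotype. The median change with genotype was -0.67 over 6 adipocyte markers, all negative, 0.17 over 6 Schwann cell markers, all positive, and 0.14 over the 5 tested immune markers, all positive and with *Cd68* furthest at 0.69 ± 0.36 (adjusted p = 0.843). The 6 liver markers, set here because *Aldh1l1* is abundant in liver, summed to 4.31 to 91.7 CPM, nearly all of it from *Cyp2e1* (3.99 to 88.9 CPM). The medians of this sum and of the adipocyte sum were both highest in exercised WT mice, at 48 and 226 CPM. Both were lowest in rested mD3AKO mice, at 15.1 and 99.3 CPM, and the cell source of *Cyp2e1* was not tested. *Alb* reached 2.58 CPM, and *Apoa1*, *Ttr*, *Serpina1a* and *Hnf4a* reached at most 5, 4, 3 and 1 counts in any library. *Cyp2e1* and *Alb* changed by -0.53 ± 0.35 and -0.84 ± 0.38 with genotype, neither called. The part of other cell types in the *Aldh1l1* difference was not tested.

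After exercise, 5 of 6 endothelial markers fell, where 4.69% of all tested genes were called lower: *Kdr* (-0.58 ± 0.07), *Cldn5* (-0.59 ± 0.13), *Tek* (-0.35 ± 0.06), *Emcn* (-0.27 ± 0.06) and *Cdh5* (-0.23 ± 0.06). The endothelial sum was 342 to 456 CPM in rested and 284 to 371 CPM in exercised WT mice, and 334 to 432 and 298 to 360 CPM in mD3AKO mice. Of the 5 satellite cell markers, *Pax7* (-0.45 ± 0.10) and *Myf5* (-0.46 ± 0.09) also fell, and the list held 3 negative and 2 positive values. All 6 fibroblast markers had negative values, with a median of -0.38 and 0 called. Adipocyte and Schwann cell markers were each positive in 5 of 6, with medians of 0.17 and 0.12. The 2 tested liver markers were positive (median 0.45), and 4 of the 5 tested immune markers were negative (median -0.17). None of these was called. No list of cell type markers held a gene called higher after exercise, and the part of these shifts in the *Mat2a* and *Mthfd1l* changes was not tested.

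The protein-coding genes around *Aldh1l1* were not called for genotype, where 0.226% of all tested genes were called higher and 0.0428% lower. *Klf15*, a metabolic transcription factor that ends upstream at chr6:90462576-90475238, changed by -0.14 ± 0.09 with genotype (adjusted p = 0.932) and rose with exercise (0.48 ± 0.09, adjusted p = 0.000761), a comparison in which *Aldh1l1* did not pass. *Cfap100*, further upstream, changed by 0.13 ± 0.32 with genotype, and the genes downstream, *Slc41a3* and *Iqsec1*, by 0.07 ± 0.07 and 0.02 ± 0.07.

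Across the 25 libraries, the genes whose log2 CPM followed *Aldh1l1* most closely were *Gm44289* (Pearson r = 0.888), *Gm31520* (0.877), *D430041D05Rik* (0.843), *Kcne1l* (0.820) and *Ctxn3* (0.820). *Gm44289* at chr6:66254743-66258205 and *Gm31520* at chr6:66264155-66284845 are on the chromosome of *Aldh1l1* but far from it, and the others are on chromosomes 2, X and 18. These libraries differ by genotype, exercise, sex and depth, and with the 4 group means removed the same coefficients were 0.297, 0.100, 0.421, 0.132 and 0.148. Other genes then took the 5 closest places, with coefficients from 0.720 to 0.775. *Shmt1* was the closest enzyme of the set (r = 0.458, rank 308 of 16340 genes, and 0.292, rank 2334, with group means removed), and *Mthfd2* (r = -0.278) was the furthest, a place that *Mthfd2l* took with group means removed (-0.514 against -0.416). Within the set the closest pair was *Mthfd1l* and *Mat2a* (r = 0.584), the 2 genes that rose after exercise. With group means removed that pair was at 0.170, and the strongest coefficient was the negative one of *Shmt1* and *Mat2a* (-0.611). All of these are descriptions over libraries that differ by group.

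Windows of 300 bases around the RefSeq start (250 before and 50 after, GRCm38.p6) were matched for 8 of the 9 genes, all but *Aldh1l2*. CG dinucleotides numbered 8 in *Mthfd1l*, 9 in *Aldh1l1*, 13 in *Shmt2*, 15 in *Mthfd2*, 16 in *Mthfd1*, 17 in *Shmt1*, 19 in *Mthfd2l* and 34 in *Mat2a*, against a median of 7 over 32851 windows. *Mat2a* held more than 92.3% of all windows, and *Aldh1l1* more than 54.2%. The observed count over that expected from base composition was 0.333 in *Aldh1l1* and 0.356 in *Mthfd1l*, the lowest of the set, and 1.05 in *Mat2a*, where the median of all windows was 0.384. On both strands CCAAT was found in 5 of the 8 windows (37.4% of all windows), TATAAA in 1, that of *Mat2a* (13.6%), CACGTG in 0 (7.2%) and TGATGNAA, searched as a form of the ATF4 site, in 0 (4.0%).

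Some reads could belong to other genes or be left out where genes overlap, since whether counting used strand was not given in the sources used here. An opposite-strand gene, *Gm15756*, shares 499 exon bases (11.1%) with *Aldh1l1* and held 459 counts over all libraries against 14787. *Particl* shares 508 bases (11.3%) with *Mat2a* and held 1303 counts against 73530. For *Aldh1l2* and *Shmt1* the overlapping gene was the more abundant: *D10Wsu102e* shares 1056 bases (14.1%) with *Aldh1l2* and held 14686 counts against 4002, and *Smcr8* shares 184 bases (4.74%) with *Shmt1* and held 44167 counts against 6485, so the values of both are less certain. Of all 31-base words in the exons, 9.15% of those of *Mat2a* occur in the pseudogene *Gm9523* (34 counts in all), and no word was shared between members of the set.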

How the data were processed

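RNA was measured in 25 *soleus* libraries, 1 per mouse, from ribosomal RNA-depleted, stranded, paired-end reads. The deposited values are raw read counts per gene; the submitters' processing notes name FastQC 0.11.5, STAR 2.5.3a, featureCounts 1.5.3 and mm10, and the methods name GENCODE M15. Whether counting used strand is not given in the sources used here, and reads in bases shared by overlapping genes could then be misassigned or left out. Symbols were matched for 52403 of 52636 gene IDs.

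Counts were analysed in R 4.3.3 with edgeR 4.0.16: trimmed-mean scaling, a filter at a minimum count of 10 (16340 genes kept, all 9 members among them), 1 mean for each of 4 groups, quasi-likelihood tests, and Benjamini-Hochberg adjustment over all tested genes at 0.05. Main effects are averages over the other factor. Comparisons within one genotype or condition share mice, and differences between them were tested only by the interaction. Sex came from a fit with 8 means. Fold changes have model standard errors; levels are CPM (counts scaled to library size), per kb of the deposited exon length where genes are compared. The fit was tested on simulated data, and the outcome is not given here. Likeness used log2 values with a prior count of 2.

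The members and lists were chosen with earlier results of these data known. Named were all 9 members, list genes called for genotype or exercise (at most 5 in each direction), neighbours of *Aldh1l1*, the 5 genes most like it and *Dnmt3a*; other genes given as examples were chosen after their values were seen. Alternatives were another scaling, no scaling, DESeq2 1.42.0, other filters, sex terms, each sex alone, mouse-number blocks, an additive model, and leaving out each mouse. The result for 1 gene of the wider lists is not reported here.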

Additional observations from a re-analysis of the deposited data

Results flagged for a closer look

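In each of the 36 combinations of gene and group, the highest and lowest mouse were compared with the rest by the gap to the nearest mouse over the group's range, a rule that chance meets in about 1 of 20 groups; 2 combinations met it. *Aldh1l2* in exercised WT mice was at 7.62 CPM in mouse 5, against 5.47 CPM in the next mouse (gap 0.592 of the range, critical value 0.568). The same mouse had the lowest *Aldh1l1* value of all, 5.62 CPM. *Mat2a* in exercised mD3AKO mice was at 133 CPM in mouse 17, against 108 CPM in the next mouse (gap 0.758 of the range, critical value 0.625). The genotype change of *Aldh1l2*, 0.11 on the log2 scale and not called, was 0.17 without mouse 5, the highest value with any one mouse left out, and 0.0564, the lowest, without mouse 24, a rested mD3AKO mouse. Without mouse 17 the exercise change of *Mat2a* was 0.32.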

How the results depend on the processing

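No paired analysis was possible because mouse numbers run from 1 to 25 and no number recurs in another group. The call of *Aldh1l1* for genotype held in 10 of 11 alternatives and without any one mouse (log2 1.17 to 1.32), and was lost in females alone (1.17; adjusted p = 0.159; range over alternatives 1.26e-15 to 0.159). Members called for genotype went from 1 to 0 in females and to 2 with mouse-number blocks, which added *Shmt1* (0.408), and stayed at 1 without each mouse. Members called for exercise went from 2 to 1 in males, where *Mthfd1l* was lost (0.518; adjusted p = 0.113), and stayed at 2 without each mouse. The 44 genes called for genotype became 29 without scaling, 81 with DESeq2, 72 with a sex term, 23 in males, 6 in females and 97 with blocks (35 to 48 without each mouse). The 1699 called for exercise became 927 without scaling, 966 in males and 512 in females (1539 to 1804 without each mouse). The interaction called 0 in every alternative. The causes of these changes were not tested, and this includes the smaller number of mice in each sex alone.

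Signs turned for effects that no setting called. For genotype these were *Mthfd1l* (0.00806 with 8 groups, 0.0709 in males, 0.00425 in the additive model; -0.0812 to 0.0798 without each mouse), *Mthfd2* (0.0192 in females; -0.057 to 0.000725), *Mthfd2l* (0.00652 in males; -0.0475 to 0.0231), *Shmt2* (-0.00293 unscaled, -0.000853 in males) and *Mat2a* (-0.0199 unscaled, -0.0443 in males; -0.024 to 0.0537). For exercise they were *Mthfd1* (-0.034 in females), *Mthfd2* (0.00176 with 8 groups, 0.000406 in females, 0.000765 additive; -0.0359 to 0.0265) and *Aldh1l1* (-0.141 to 0.00983). For the interaction they were *Mthfd1l* (-0.0407) and *Shmt2* (0.000478) in females and *Mthfd2l* (-0.0874) in males (-0.0172 to 0.125 without each mouse). The *Shmt1* interaction, -0.0342 over all mice (-0.24 to 0.105 without each mouse), was 0.402 in females and -0.464 in males, neither called, and the difference between the sexes was not tested. At 31 to 183 counts per library, *Mthfd1l* is the member whose depth limits it most.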
